A study of Homo sapiens with 21 samples.

Results

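Antisense long noncoding RNA genes are named for the gene on the opposite strand that they overlap or start next to, so that ZNF143-AS1 is the antisense gene of ZNF143. Many of them share a promoter region with the sense gene and are transcribed away from it, others lie across its exons or inside an intron, and some act on the sense gene, on other genes or not at all. Their transcription by RNA polymerase II depends on elongation and on 3′ end formation, which the cyclin-dependent kinases CDK12 and CDK13 promote, and THZ531 is a covalent inhibitor of these kinases. The genes described here are the rows of a gene count table whose NCBI symbol ends in -AS and digits, selected on measured values by one limit, a raw count of at least 50 averaged over all 21 libraries. The table held 28395 genes, 1209 of them with such a symbol, and 229 passed the limit. The count table comes from Hs578T, a triple-negative breast cancer cell line, sampled after 8 h in 7 groups of 3 libraries from independent experiments. The groups were the vehicle DMSO, THZ531 at 0.1 µM and at 1 µM, the tyrosine kinase inhibitors lapatinib at 3.16 µM and nilotinib at 1 µM, and each of these inhibitors combined with 0.1 µM THZ531. Each treatment was compared with DMSO, and the combinations were set beside their parts and beside high-dose THZ531. Libraries were polyA-selected and unstranded, so that where a gene and its antisense partner overlap, their reads cannot be told apart.

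The counted reads per library ranged from 97612207 to 112229052, and the 229 genes together took 0.0990% ± 0.0026 (SD, n = 3) of them in DMSO and 0.0783% ± 0.0029 after nilotinib with THZ531, the lowest group. Levels are given as CPM, which are counts scaled to the library size times its TMM normalization factor. These factors ran from 0.867 in a library of lapatinib with THZ531 to 1.11 in a library of lapatinib alone. Most markers fitted the line, with VIM between 6395 and 10123 CPM and CDH2 at 492 CPM or more in every library. CDH1 stayed at or below 0.368 CPM and EPCAM at or below 0.0875 CPM. Of the receptor genes, ESR1 stayed at or below 0.502 CPM and PGR at or below 0.0350 CPM. ERBB2, the gene of the receptor HER2, was the exception and lay above these, with a mean of 37.5 CPM in DMSO. Per kilobase of exon its level there was 3.64 CPM. HER2 protein was not measured here. The endothelial gene PECAM1 stayed at or below 0.605 CPM and the leukocyte gene PTPRC at or below 2.45 CPM, with PTPRC highest after THZ531 (1 µM), where its part in the results was not tested. The genes just inside the limit were ZMIZ1-AS1, with a mean count of 50.9, TAPT1-AS1 with 51.2, HMGA2-AS1 with 51.8, and RBM12B-AS1 and ITGA9-AS1 with 52.2 each. Just outside were SUCLA2-AS1 with 49.3, FOXC2-AS1 with 48.3, TMEM51-AS1 and ZFHX4-AS1 with 47.0 each, and PAXBP1-AS1 with 47.0. All 229 genes also passed the filter on low counts of the test. In 11 of them the DMSO libraries alone averaged fewer than 50 counts, so that these reached the limit through treated libraries and had to be higher there. They were ASH1L-AS1, DCST1-AS1, EFCAB2-AS1, GAS5-AS1, HDLBP-AS1, HMGA2-AS1, HOXC-AS3, PCGF3-AS1, ROPN1L-AS1, TNS2-AS1 and ZNF566-AS1. The main counts below are also given over the other 218 genes, a split chosen after the data were seen.

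A sense gene was found for 224 of the 229, all of them in the count table, and for 217 pairs both genes were tested. The other 5 genes, HOXA-AS2, HOXB-AS1, HOXC-AS1, HOXC-AS2 and HOXC-AS3, are named for a gene cluster. Positions were read from RefSeq and GENCODE annotation of GRCh38. In 88 pairs the genes lay head to head, which means opposite strands with 5′ ends within 1000 bases. In 97 of the other pairs exons of both strands overlapped, and in 32 the gene bodies overlapped without exon overlap. A further 6 pairs lay apart, and PYDC2-AS1 lay on the strand of its namesake. In GENCODE, whose models can be longer, exons of many head to head pairs also overlap, so that these pairs can share reads as well. The overlap was 359 bases for LIPT2-AS1, 158 for KMT2E-AS1 and 487 for HERPUD2-AS1, and 0 for MNX1-AS1. Of the 229, 31 overlapped no gene body, and 40 lay inside the body of the sense gene.

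The RefSeq promoter windows of 4 head to head genes are printed because each of these moved against its sense gene under THZ531. Each window runs 5′ to 3′ on the strand of the antisense gene, from 250 bases before its start to 50 after it, in build GRCh38.p14. Capitals mark GGGCGG (the GC box), CCAAT (the CCAAT box), TATAAA (the TATA box) or CCGGAAG (an ETS core), searched on both strands.
ZNF143-AS1 (minus strand, chr11:9460649-9460948): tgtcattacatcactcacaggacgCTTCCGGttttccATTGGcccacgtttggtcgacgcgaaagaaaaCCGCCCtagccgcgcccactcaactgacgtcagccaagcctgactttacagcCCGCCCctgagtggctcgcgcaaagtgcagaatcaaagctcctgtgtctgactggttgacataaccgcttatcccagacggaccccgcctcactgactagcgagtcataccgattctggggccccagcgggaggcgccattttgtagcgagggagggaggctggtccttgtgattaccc
KMT2E-AS1 (minus strand, chr7:105014092-105014391): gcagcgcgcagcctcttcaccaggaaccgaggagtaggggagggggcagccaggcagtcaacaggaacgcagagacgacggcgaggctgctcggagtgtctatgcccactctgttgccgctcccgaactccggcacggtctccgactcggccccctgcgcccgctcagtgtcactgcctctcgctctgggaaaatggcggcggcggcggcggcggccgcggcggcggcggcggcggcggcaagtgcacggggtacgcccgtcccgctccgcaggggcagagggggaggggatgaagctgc
LIPT2-AS1 (plus strand, chr11:74493130-74493429): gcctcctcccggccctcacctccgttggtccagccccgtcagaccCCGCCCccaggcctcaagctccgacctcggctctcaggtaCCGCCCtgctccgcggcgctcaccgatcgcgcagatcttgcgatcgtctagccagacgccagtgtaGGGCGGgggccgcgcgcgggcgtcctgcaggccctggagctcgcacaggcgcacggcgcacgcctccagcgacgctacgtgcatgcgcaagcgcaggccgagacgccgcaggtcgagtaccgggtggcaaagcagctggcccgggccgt
MNX1-AS1 (plus strand, chr7:157010607-157010906): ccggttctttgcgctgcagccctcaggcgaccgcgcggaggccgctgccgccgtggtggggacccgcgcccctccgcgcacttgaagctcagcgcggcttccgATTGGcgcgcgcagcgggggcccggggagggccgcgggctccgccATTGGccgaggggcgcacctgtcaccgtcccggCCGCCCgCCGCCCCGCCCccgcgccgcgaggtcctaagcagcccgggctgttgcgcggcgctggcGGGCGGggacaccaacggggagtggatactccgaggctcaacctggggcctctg
The 5′ ends of the genes in these pairs lay 314 bases apart for ZNF143-AS1, 64 for KMT2E-AS1, 344 for LIPT2-AS1 and 194 for MNX1-AS1. None of the 4 windows held TATAAA, and the KMT2E-AS1 window held none of these letter strings. RefSeq windows were matched for 183 of the 229 genes, and their median GC content was 66.7%, against 58.3% over all 27305 windows. GGGCGG was found in 60.1% of the antisense windows and in 44.6% of all windows. For CCAAT the shares were 31.2% and 35.7%, for TATAAA 6.01% and 12.0%, and for CCGGAAG 11.5% and 10.7%. Among the 71 head to head genes with a window, GGGCGG was in 70.4% and TATAAA in 2.82%.

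The antisense genes were expressed at low levels in DMSO, with a median of 1.29 CPM and a range from 0.0363 to 89.3 CPM. Of the 229, 92 lay under 1 CPM and 22 above 10 CPM, and the median spread of the 3 DMSO libraries was 9.79% of the mean. Per kilobase of exon, the level of the antisense gene lay above that of its sense gene in 39 of 211 pairs (18.5%), and the medians were 0.414 and 4.99 FPKM (CPM divided by exon length in kilobases). The highest level per length was that of FGD5-AS1, a long transcript studied as a microRNA sponge, at 14.8 FPKM ± 0.502 (SD, n = 3). PITPNA-AS1 followed at 10.7 FPKM ± 0.504, TRIM52-AS1 at 8.64 ± 1.08, PRRT3-AS1 at 7.67 ± 0.760 and WAC-AS1 at 6.41 ± 0.695. The ranges of mean ± SD overlapped between TRIM52-AS1 and PRRT3-AS1 and between PRRT3-AS1 and WAC-AS1, but not between FGD5-AS1 and PITPNA-AS1 or between PITPNA-AS1 and TRIM52-AS1.

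After low-dose THZ531 more antisense genes fell than rose, mostly by small amounts. The median log2 fold change (FC) of the 229 genes was -0.17 after THZ531 (0.1 µM) against DMSO, with quartiles of -0.42 and -0.01, while the median was 0.01 over all 16036 tested genes and -0.01 over the 216 sense genes tested. In the quasi-likelihood test of edgeR, with p-values adjusted by Benjamini-Hochberg over all tested genes, 35 of the 229 (15.3%) fell and 2 (0.873%) rose at an adjusted p below 0.05 and any size of change, against 4.31% and 1.78% of all tested genes. At a log2 FC beyond 1 there were 5 lower and 1 higher, against a background of 0.742% and 0.143%. All 3 treated libraries lay below all 3 DMSO libraries in 78 of the 229 (34.1%) and above them in 15 (6.55%), where all tested genes gave 15.4% and 16.5%.

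The gene with the smallest adjusted p here was the only strong riser at this dose. MAP3K20-AS1, which lies across the 3′ part of the stress kinase gene MAP3K20, measured 0.581, 0.587 and 0.664 CPM in DMSO and 1.94, 1.61 and 1.79 CPM after THZ531 (0.1 µM), a log2 FC of 1.54 ± 0.16 (SE, adjusted p = 9.16e-06). The groups did not overlap. SP2-AS1 overlaps the body of the transcription factor gene SP2, without exon overlap. It fell from 2.91, 2.36 and 2.70 CPM to 1.67, 1.55 and 1.31 CPM (log2 FC -0.81 ± 0.12, adjusted p = 0.000544). It measured 3.82, 3.82 and 3.62 CPM after THZ531 (1 µM), above all DMSO libraries. THAP7-AS1, head to head with the gene of the THAP domain protein THAP7, fell from 2.52, 2.32 and 2.86 CPM to 1.68, 1.41 and 1.30 CPM (log2 FC -0.81 ± 0.12, adjusted p = 0.000617). HERPUD2-AS1 fell from 13.2, 12.1 and 13.0 CPM to 9.08, 8.65 and 8.10 CPM, with a log2 FC of -0.57 ± 0.10 (adjusted p = 0.00138). In SP2-AS1, THAP7-AS1 and HERPUD2-AS1 alike, every treated library lay below every DMSO library. SDCBP2-AS1 fell to less than its DMSO level in all 3 libraries as well, from 1.43, 1.50 and 1.27 CPM to 0.639, 0.777 and 0.468 CPM (log2 FC -1.15 ± 0.20, adjusted p = 0.00146). TMPO-AS1, which starts beside the gene of the nuclear lamina protein thymopoietin, fell from 15.6, 16.1 and 17.2 CPM to 9.93, 9.37 and 9.64 CPM (log2 FC -0.76 ± 0.13, adjusted p = 0.00178).

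The 5 strong fallers at this dose, named because they are so few, were ANXA2R-AS1 (log2 FC -1.41), RAP2C-AS1 (-1.23), CCDC18-AS1 (-1.17), SDCBP2-AS1 (-1.15) and TSPEAR-AS1 (-1.13). Without DMSO replicate 2 this count was 2, since RAP2C-AS1, CCDC18-AS1 and TSPEAR-AS1 then did not pass, with log2 FCs of -1.05, -0.97 and -0.95. It was 3 without replicate 2 or replicate 3 of THZ531 (0.1 µM). Of their sense genes, ANXA2R, RAP2C, CCDC18 and TSPEAR did not pass the test at this dose, and SDCBP2 had too few counts to be tested. The first 3 of these fallers lie outside the naming rule and were chosen after their values were seen.

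The combinations and THZ531 (1 µM) moved antisense genes in both directions. After lapatinib with THZ531, 32 of the 229 (14.0%) were lower and 30 (13.1%) higher at an adjusted p below 0.05 and a log2 FC beyond 1, against 21.3% and 7.90% of all tested genes. After nilotinib with THZ531, 28 (12.2%) were lower and 21 (9.17%) higher, against 20.8% and 6.54%. After THZ531 (1 µM), 18 (7.86%) were lower and 20 (8.73%) higher, against 18.9% and 5.77%. Among the 218 genes that reach 50 counts in DMSO alone, 32 (14.7%) were lower and 22 (10.1%) higher with lapatinib. With nilotinib these counts were 28 (12.8%) and 14 (6.42%), and after THZ531 (1 µM) 18 (8.26%) and 12 (5.50%). With nilotinib and after THZ531 (1 µM), the shares higher were thus close to those of all tested genes. At any size of change, 28.8% of the 229 fell and 43.2% rose with lapatinib, where all tested genes gave 37.8% and 34.3%. With nilotinib 32.3% fell and 38.9% rose, against 37.3% and 33.7%, and after THZ531 (1 µM) 23.1% fell and 41.0% rose, against 36.8% and 33.1%. Over the 218 genes the shares that fell and rose were 30.3% and 40.4% with lapatinib, 33.9% and 35.8% with nilotinib, and 24.3% and 38.5% after THZ531 (1 µM).

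The median log2 FC of the antisense genes was 0.19 with lapatinib, 0.22 with nilotinib and 0.25 after THZ531 (1 µM), while that of all tested genes was -0.01 each time. Over the 218 genes the medians were 0.15, 0.13 and 0.21. The sense genes had medians of -0.09, -0.03 and -0.20. Of the 216 sense genes tested, 44, 45 and 50 were lower and 15, 9 and 7 were higher. These 3 comparisons share the DMSO libraries. The directions depend on the TMM scaling, and as a share of all counts the antisense genes together were lower in these treatments than in DMSO. With libraries scaled to the 13 mitochondrially encoded mRNAs instead, the median of all tested genes moved by -0.68 with lapatinib, -0.62 with nilotinib and -0.54 after THZ531 (1 µM). The antisense genes then split into 72 lower and 10 higher, 71 and 9, and 48 and 8, and their medians were -0.49, -0.41 and -0.29. The medians of all tested genes were then -0.69, -0.63 and -0.55, below those of the antisense genes. Shares of all tested genes called under this scaling are not given here.

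**Figure D1:**
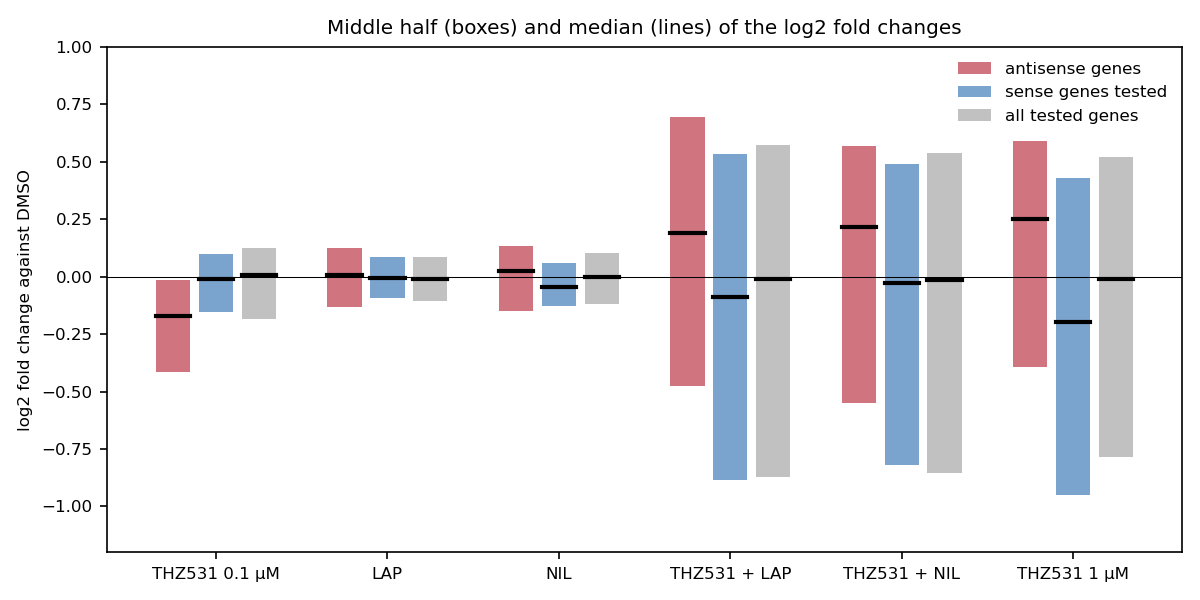
Log2 fold changes against DMSO (y axis) in the 6 treatments (x axis) for the 229 antisense genes, the 216 tested sense genes and all 16036 tested genes; each box runs from the lower to the upper quartile and the line is the median. The antisense boxes lie lowest after THZ531 (0.1 µM), with a median of -0.17, and have the highest of the 3 medians in the combinations and after THZ531 (1 µM).

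The highest log2 FC was that of ROPN1L-AS1 (chr5:10440735-10441851, minus strand), head to head with ROPN1L, which encodes a protein of the sperm tail. It was close to silent, with 5, 4 and 4 raw counts in DMSO (0.0403, 0.0345 and 0.0340 CPM) and at most 12 counts after THZ531 (0.1 µM), lapatinib or nilotinib alone. It measured 1.97, 1.28 and 1.80 CPM with lapatinib and THZ531, 1.60, 1.45 and 1.30 CPM with nilotinib and THZ531, and 0.850, 0.859 and 0.856 CPM after THZ531 (1 µM). The log2 FC was 5.49 ± 0.45 (SE), 5.27 ± 0.45 and 4.51 ± 0.46. All 9 libraries of these groups lay above the other 12. This gene reached the count limit only through them, so that no test is given. ROPN1L itself had a log2 FC of 0.25 with lapatinib and THZ531.

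ZNF143-AS1 (chr11:9459556-9460698, minus strand), whose promoter window is printed above, had the clearest rise among genes with more than a few counts in DMSO. ZNF143 is a zinc finger factor that binds many promoters. ZNF143-AS1 measured 0.548, 0.716 and 0.613 CPM in DMSO, and 7.31, 7.06 and 8.34 CPM with lapatinib and THZ531. It was at 6.95, 6.17 and 6.67 CPM with nilotinib and THZ531 and at 7.59, 6.32 and 6.03 CPM after THZ531 (1 µM). The 3 single treatments with THZ531 (0.1 µM), lapatinib or nilotinib left it between 0.359 and 0.732 CPM, around its DMSO level. The log2 FC was 3.60 ± 0.19 (SE, adjusted p = 1.19e-12), 3.40 ± 0.19 (adjusted p = 2.85e-12) and 3.41 ± 0.19 (adjusted p = 4.51e-12). The bodies of the pair did not overlap in RefSeq. ZNF143 went the other way, from 22.0, 18.3 and 20.2 CPM in DMSO to 4.91, 5.07 and 4.32 CPM with lapatinib and THZ531 (log2 FC -2.08 ± 0.12, adjusted p = 5.30e-12).

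KMT2E-AS1 (chr7:105010542-105014141, minus strand) starts 64 bases from KMT2E, the gene of a chromatin reader. It rose from 1.06, 1.16 and 1.17 CPM to 4.91, 5.90 and 6.03 CPM with lapatinib and THZ531, 4.32, 5.05 and 4.77 CPM with nilotinib and THZ531, and 5.89, 5.44 and 4.86 CPM after THZ531 (1 µM). The log2 FC values were 2.31 ± 0.15, 2.06 ± 0.15 and 2.25 ± 0.15 (adjusted p of 2.82e-11, 1.72e-10 and 6.31e-11). Again no treated library reached down to the DMSO range. KMT2E fell, with a log2 FC of -1.01 ± 0.15 after THZ531 (1 µM) (adjusted p = 5.20e-06).

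MAP3K20-AS1 rose further than at the low dose, to 4.45, 4.77 and 4.36 CPM with lapatinib and THZ531 (log2 FC 2.89 ± 0.16, adjusted p = 3.49e-12) and to 3.09, 1.99 and 3.32 CPM after THZ531 (1 µM) (2.19 ± 0.16, adjusted p = 3.17e-10). GAS5-AS1 lies across an end of GAS5, a noncoding host of small nucleolar RNAs. It went from 0.210, 0.276 and 0.332 CPM to 2.03, 1.68 and 1.96 CPM with lapatinib and THZ531 (log2 FC 2.79 ± 0.22), and GAS5 itself had a log2 FC of 0.42. GAS5-AS1 is among the 11 genes that reached the count limit through treated libraries, so that no test is given. The treated values of MAP3K20-AS1 did not overlap its DMSO values.

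The remaining genes with large positive values by the naming rule, of which EFCAB2-AS1 and PCGF3-AS1 are among those 11 genes, had log2 FCs with lapatinib and THZ531 of 2.60 for EFCAB2-AS1, 2.29 for PCGF3-AS1, 2.06 for EML2-AS1 and 1.94 for FRMD6-AS1. After THZ531 (1 µM) the values were 2.75, 2.52, 1.24 and 1.77. With nilotinib they were 2.30, 1.88, 1.67 and 1.73. EML2-AS1 overlaps exons of EML2, a microtubule-binding protein gene, over 95.0% of its exon length. Its reads there cannot be told apart from those of EML2, so that the rise cannot be assigned to either strand. FRMD6-AS1 lies inside FRMD6, a gene of the Hippo pathway that had a log2 FC of -0.95 with lapatinib and THZ531.

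**Figure D2:**
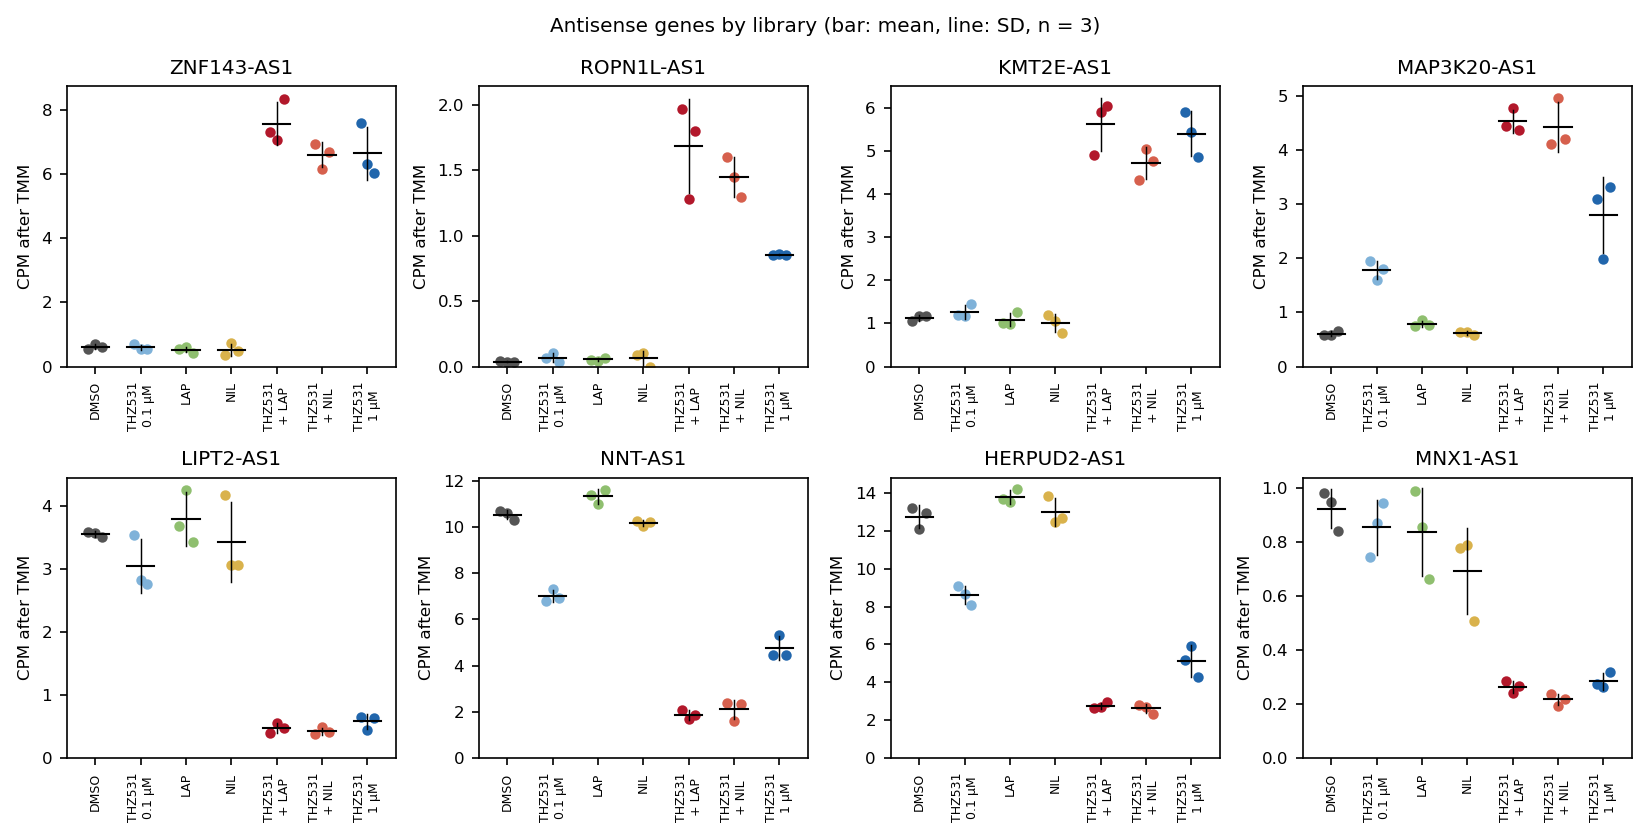
CPM after TMM normalization (y axis, from 0) for 8 antisense genes in each library of the 7 groups (x axis), with points for libraries, bars for means and lines for the SD (n = 3). The upper row holds genes that rose and the lower row genes that fell, and in all 8 the libraries of both combinations and of THZ531 (1 µM) lie apart from DMSO. ROPN1L-AS1 reached the count limit only through treated libraries, so that its separation was favoured by the selection.

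The largest fall was that of PDZRN3-AS1, which overlaps the body of the ubiquitin ligase gene PDZRN3. This gene measured 1.76, 1.54 and 1.72 CPM in DMSO, 0.131, 0.197 and 0.145 CPM with lapatinib and THZ531, and 0.336, 0.283 and 0.107 CPM after THZ531 (1 µM). The log2 FC was -3.40 ± 0.30 (adjusted p = 2.87e-09) and -2.78 ± 0.28 (adjusted p = 2.73e-08). PDZRN3 itself had a log2 FC of -0.05 with lapatinib and THZ531.

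LIPT2-AS1 (chr11:74493380-74498533, plus strand) starts 344 bases from LIPT2, the gene of a mitochondrial lipoyl transferase. It fell from 3.59, 3.56 and 3.50 CPM to 0.404, 0.558 and 0.479 CPM with lapatinib and THZ531, 0.378, 0.486 and 0.407 CPM with nilotinib and THZ531, and 0.651, 0.450 and 0.642 CPM after THZ531 (1 µM). The log2 FCs were -2.88 ± 0.18, -3.06 ± 0.18 and -2.61 ± 0.17, with adjusted p of 1.42e-11, 7.66e-12 and 6.66e-11. All 9 libraries lay far below the DMSO range. LIPT2 rose with lapatinib and THZ531, by a log2 FC of 1.18 ± 0.16 (adjusted p = 1.16e-06).

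NNT-AS1 (chr5:43573185-43603230, minus strand) starts 555 bases from NNT, which encodes the mitochondrial nicotinamide nucleotide transhydrogenase. It measured 10.7, 10.6 and 10.3 CPM in DMSO, 6.80, 7.33 and 6.93 CPM after THZ531 (0.1 µM), and 4.45, 5.34 and 4.45 CPM after THZ531 (1 µM). It was lowest in the combinations, at 2.1, 1.67 and 1.86 CPM with lapatinib and 2.38, 1.62 and 2.33 CPM with nilotinib. All libraries of these 4 groups lay below all DMSO libraries, and those of both combinations lay below those of THZ531 (1 µM). The log2 FC was -0.58 ± 0.11 (adjusted p = 0.00258) at the low dose, -1.15 ± 0.11 (adjusted p = 1.56e-08) at the high dose, -2.49 ± 0.12 (adjusted p = 3.23e-13) with lapatinib and -2.32 ± 0.12 (adjusted p = 8.38e-13) with nilotinib. NNT had a log2 FC of 0.44 with lapatinib and THZ531.

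HERPUD2-AS1 (chr7:35695206-35699413, plus strand) starts 71 bases from HERPUD2, a gene of protein degradation at the endoplasmic reticulum. After the fall at the low dose described above, it stood at 5.17, 5.93 and 4.29 CPM after THZ531 (1 µM), 2.64, 2.70 and 2.94 CPM with lapatinib and THZ531, and 2.80, 2.72 and 2.35 CPM with nilotinib and THZ531. The log2 FCs against DMSO were -1.31 ± 0.10, -2.21 ± 0.10 and -2.28 ± 0.10 (adjusted p of 4.45e-10, 2.52e-13 and 1.82e-13). HERPUD2 fell as well, by log2 FCs of -1.59, -1.43 and -1.43.

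UBQLN1-AS1, head to head with the ubiquilin gene UBQLN1, went from 0.951, 0.811 and 1.10 CPM to 0.142, 0.0656 and 0.156 CPM with lapatinib and THZ531, the latter from 13, 6 and 14 counts (log2 FC -2.97 ± 0.27, adjusted p = 4.66e-09). UBQLN1 had a log2 FC of 0.12. TSPEAR-AS1 lies inside TSPEAR, a gene of hair follicle and tooth development that averaged 0.124 CPM in DMSO. The antisense gene measured 1.08, 1.42 and 0.953 CPM in DMSO, 0.426, 0.620 and 0.530 CPM after THZ531 (0.1 µM) and 0.231, 0.136 and 0.0749 CPM after THZ531 (1 µM), a log2 FC of -1.13 ± 0.27 (adjusted p = 0.0174) and -2.95 ± 0.32 (adjusted p = 1.03e-07). These groups did not overlap.

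Other fallers by the naming rule were ZNF407-AS1, CKMT2-AS1, A1BG-AS1 and MNX1-AS1. Their log2 FCs with lapatinib and THZ531 were -2.73, -2.69, -2.41 and -1.80, with nilotinib and THZ531 -2.70, -2.42, -2.27 and -2.08, and after THZ531 (1 µM) -2.72, -1.61, -2.05 and -1.69.

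Antisense and sense log2 FCs had weak correlations in the THZ531 groups. Over the 217 pairs, Pearson's r of the log2 FCs was -0.05 in the lapatinib combination, -0.07 in the nilotinib combination, -0.09 after THZ531 (1 µM) and 0.07 after THZ531 (0.1 µM). These r values are descriptions over pairs that come from the same libraries, and overlapping pairs can share reads. In the 88 head to head pairs r was -0.11, -0.14, -0.13 and -0.16, and in the 94 exon-overlapping pairs it was 0.22 after THZ531 (0.1 µM). Over all pairs r was 0.12 after lapatinib alone and 0.20 after nilotinib alone, and in head to head pairs 0.20 and 0.40. After THZ531 (1 µM) the antisense gene had the higher log2 FC in 136 of 217 pairs (62.7%), in 62 of 88 head to head pairs (70.5%) and in 47 of 94 exon-overlapping pairs (50.0%). With lapatinib and THZ531 it did so in 119 pairs (54.8%), with 59.1% of head to head and 46.8% of exon-overlapping pairs. In the nilotinib combination the figures were 115 pairs (53.0%), 55.7% and 46.8%. After THZ531 (0.1 µM) it had the higher log2 FC in 66 pairs (30.4%).

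Both genes of a pair were called past a log2 FC of 1 in 22 pairs in at least 1 of these 3 treatments. In 16 of them the directions were opposite, with the antisense gene higher in 13 and lower in 3, and in 6 they were the same. Pairs called in all 3 treatments numbered 3 with opposite and 3 with the same directions. Over antisense genes that reach 50 counts in DMSO alone, 12 pairs were opposite, 9 of them with the antisense gene higher, and 6 were the same. With lapatinib and THZ531, 26 antisense genes of the 217 pairs were higher and 44 of the sense genes lower, and both held in 7 pairs. No test of association was made. Of the 16 sense genes, 5 encode zinc finger factors: ZNF143, ZNF232, ZNF436, ZNF516 and ZNF566. The share of zinc finger genes among all sense genes is not given here. The authors report that these treatments lowered many transcription factor genes, mostly of the zinc finger kind. Whether this count is particular to antisense pairs was not tested. ZNF566-AS1, 66 bases from ZNF566, had a log2 FC of 1.42 with lapatinib and THZ531 where ZNF566 had -2.77. ZNF232-AS1 had 1.08 against -2.53 for ZNF232, ZNF516-AS1 had 1.21 against -1.77, and ZNF436-AS1 had 1.29 against -1.05. ZNF566-AS1 is among the 11 genes that reached the limit through treated libraries. The other pairs with a higher antisense gene were those of ASH1L, DMTF1, FOXP4, FRMD6, GABPB1, HMGA2, KMT2E and PCGF3, and the antisense genes of ASH1L, HMGA2 and PCGF3 are also among the 11. These pairs, and those of the next paragraph outside the naming rule, were chosen after their values were seen.

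MNX1-AS1, LIPT2-AS1 and RHPN1-AS1 were the antisense genes that fell where the sense gene rose. MNX1-AS1 (chr7:157010857-157016424, plus strand) starts 194 bases from MNX1, the gene of a homeobox factor of motor neurons. It measured 0.984, 0.949 and 0.842 CPM in DMSO and 0.284, 0.241 and 0.267 CPM with lapatinib and THZ531 (log2 FC -1.80 ± 0.21, adjusted p = 1.78e-07). MNX1 measured 1.81, 2.35 and 2.35 CPM in DMSO and 7.65, 9.95 and 9.65 CPM with lapatinib and THZ531 (log2 FC 2.07 ± 0.16, adjusted p = 3.32e-10). Neither gene's groups overlapped, and their bodies did not overlap in RefSeq. Pairs called in the same direction were lower for CKMT2, HECW2, HERPUD2, NIFK and TMEM44 and higher for SLC16A1. SLC16A1 encodes a lactate transporter. SLC16A1-AS1 rose from 0.984, 0.984 and 0.936 CPM to 2.27, 1.78 and 2.57 CPM with lapatinib and THZ531 (log2 FC 1.19), and SLC16A1 had a log2 FC of 1.37.

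**Figure D3:**
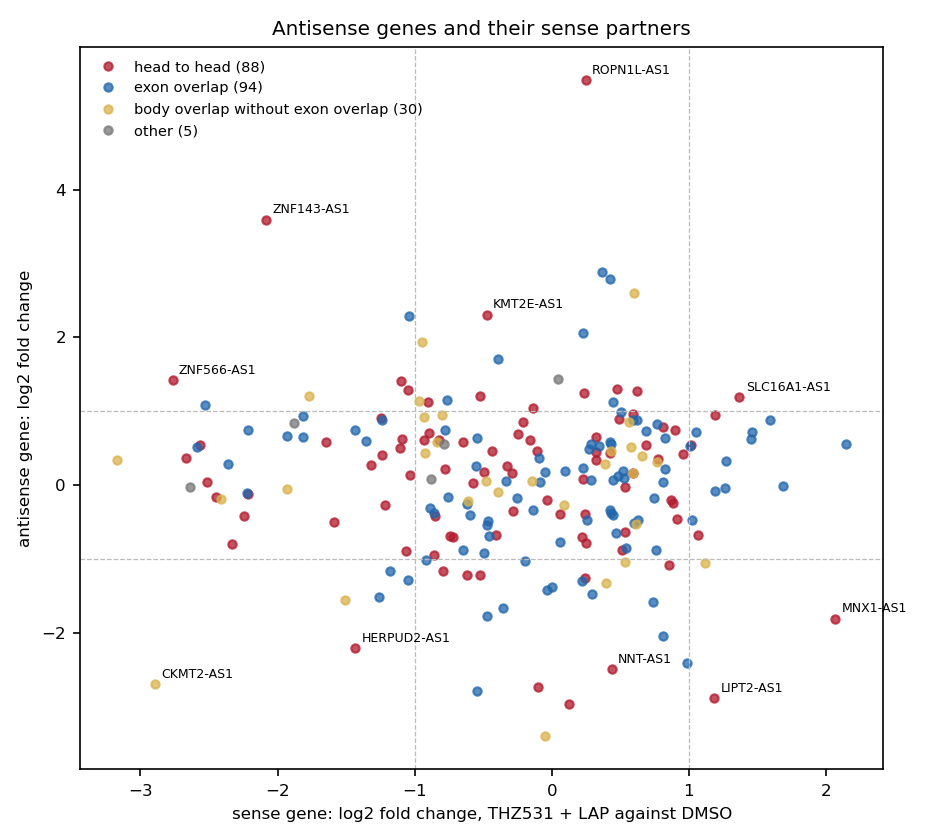
Log2 fold change after lapatinib with THZ531 against DMSO of the sense gene (x axis) and of the antisense gene (y axis) in the 217 pairs with both genes tested; each point is a pair, coloured by how the genes lie, and dashed lines mark a log2 FC of 1 in either direction. ZNF143-AS1, with ZNF143 at -2.08 and itself at 3.60, and MNX1-AS1, at 2.07 and -1.80, lie in opposite corners, and the cloud as a whole shows no slope.

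Genes with short bodies made up most of the rises, and among all tested genes the share higher was also largest in short genes. With lapatinib and THZ531, 20 of the 78 antisense genes of at most 5 kb were higher and 8 lower. Of the 71 between 5 and 20 kb, 5 were higher and 13 lower, and of the 80 above 20 kb, 5 were higher and 11 lower. As shares, 25.6%, 7.04% and 6.25% of the 3 length classes were higher and 10.3%, 18.3% and 13.8% lower, where all tested genes with a known length gave 23.3%, 8.27% and 3.66% higher and 10.8%, 22.4% and 23.4% lower. Over the 218 genes 15 (20.8%), 3 (4.41%) and 4 (5.13%) were higher. The median log2 FCs of these length classes were 0.61, -0.16 and 0.17. After THZ531 (1 µM) 14 (17.95%), 2 (2.82%) and 4 (5%) were higher, against 18.55%, 6.35% and 2.09% of all tested genes. There 6 each (7.69%, 8.45% and 7.5%) were lower, against 12.1%, 20.8% and 19.6%. With nilotinib 12 (15.4%), 3 (4.23%) and 6 (7.5%) were higher, against 19.0%, 6.63% and 3.13%. The lower genes with nilotinib numbered 8, 11 and 9 (10.3%, 15.5% and 11.25%), against 11.8%, 22.9% and 21.9%. Spearman's rho between body length and log2 FC, a description over 229 genes, was -0.20 with lapatinib, -0.14 with nilotinib and -0.10 after THZ531 (1 µM). For 13744 protein-coding genes rho was -0.15, -0.10 and -0.11, and their median log2 FCs with lapatinib were 0.50, 0.05 and -0.19 in the same length classes.

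**Figure D4:**
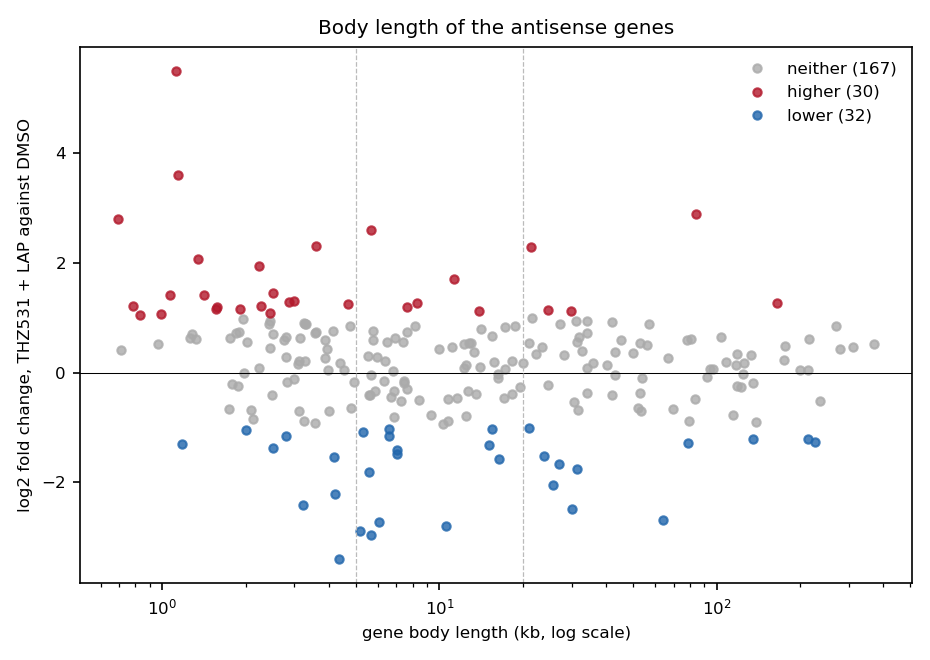
Gene body length (x axis, kb, log scale) and log2 fold change after lapatinib with THZ531 against DMSO (y axis) of the 229 antisense genes, each point a gene, coloured as higher, lower or neither at an adjusted p below 0.05 and a log2 FC beyond 1; dashed lines mark 5 and 20 kb. The 30 higher genes crowd at the short end, 20 of them at 5 kb or less, while the 32 lower genes spread over all lengths. At 5 kb or less, 25.6% of the antisense genes and 23.3% of all tested genes with a known length were higher.

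Most antisense transcripts that are well known from other work moved by less than a log2 FC of 1. FGD5-AS1, at 91.1, 85.8 and 91.0 CPM in DMSO, measured 107, 116 and 105 CPM after THZ531 (1 µM) (log2 FC 0.29 ± 0.06, adjusted p = 0.000377), and 92.8, 84.0 and 84.3 CPM with lapatinib and THZ531, where its log2 FC was -0.04. OIP5-AS1, the Cyrano transcript, measured 25.3, 23.3 and 24.9 CPM in DMSO, 19.5, 17.9 and 18.2 CPM after THZ531 (0.1 µM) and 22.7, 27.5 and 22.8 CPM after THZ531 (1 µM). It fell in both combinations, with log2 FCs of -0.54 and -0.55. Its log2 FC of -0.40 at the low dose passed the test (adjusted p = 0.0297), but not without any one of the libraries compared, where it lay between -0.44 and -0.37. MAGI2-AS3 and LOXL1-AS1 fell with lapatinib and THZ531 by log2 FCs of -0.38 and -0.47, and PSMA3-AS1 rose by 0.39. The rises of FGD5-AS1 and PSMA3-AS1 turned to log2 FCs of -0.25 and -0.30 under the mitochondrial scaling. SBF2-AS1 fell by 0.38 with lapatinib and THZ531, a call that was lost with DESeq2 (log2 FC -0.33) and without replicate 1 or 2 of DMSO (-0.37 and -0.33) or replicate 2 or 3 of the combination (-0.31 and -0.37), and PXN-AS1, at -0.47, did not pass the test. TMPO-AS1 fell to a similar level in all THZ531 groups, with log2 FCs of -0.88 with lapatinib, -1.15 with nilotinib and -0.84 after THZ531 (1 µM). CDKN2B-AS1, the ANRIL transcript of the CDKN2A and CDKN2B locus, had a log2 FC of 0.32 with lapatinib and THZ531 that did not pass the test. ZEB1-AS1 fell after THZ531 (1 µM) (log2 FC -0.69), as did HOXA-AS2 (-1.42). STARD4-AS1 fell with lapatinib and THZ531 (-1.26).

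In the pairs of WAC and THUMPD3 the sense gene had much the lower log2 FC. WAC-AS1 fell by a log2 FC of 0.79 with lapatinib and THZ531 where WAC, a regulator of histone ubiquitination, fell by 2.33. THUMPD3-AS1 rose, with log2 FCs of 0.52 in either combination and 0.61 after THZ531 (1 µM), where THUMPD3, a tRNA methyltransferase gene, had -2.59 with lapatinib and THZ531. Under the mitochondrial scaling the rises of THUMPD3-AS1 in the combinations turned to -0.16 and -0.10.

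Lapatinib and nilotinib alone moved no antisense gene past the limits. edgeR called 0 of the 229 lower and 0 higher for either inhibitor, against backgrounds of 0.0125% lower and 0.0374% higher for lapatinib and 0.0125% and 0.0249% for nilotinib. At an unadjusted p below 0.05 in edgeR there were 16 of the 229 genes for lapatinib and 22 for nilotinib. Of all 16036 tested genes, 1148 and 1550 were, a similar share. DESeq2 called 1 and 6 antisense genes at any size of change and none at a log2 FC beyond 1. All 3 lapatinib libraries lay above all DMSO libraries in 23 genes (10.0%) and below them in 17 (7.42%), where all tested genes gave 7.84% and 7.83%. For nilotinib 22 (9.61%) lay above and 20 (8.73%) below, against 10.8% and 9.82%.

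The interaction asked whether a combination moved a gene beyond the sum of the log2 changes of its parts. With lapatinib 44 of the 229 (19.2%) were higher than that sum and 18 (7.86%) lower, against 6.70% and 18.3% of all tested genes. With nilotinib 28 (12.2%) were higher and 15 (6.55%) lower, against 5.51% and 17.8%. Other noncoding classes also had more genes higher than lower. For divergent transcripts (symbols ending in -DT) the shares were 23.75% and 6.25% with lapatinib and 20% and 9.38% with nilotinib. LINC genes gave 16.0% and 10.9%, and 11.5% and 8.63%. Antisense genes under the count limit gave 23.6% and 4.32%, and 18.3% and 3.32%. Over the 218 genes 37 were higher and 18 lower with lapatinib, and 21 and 15 with nilotinib. ROPN1L-AS1, ZNF143-AS1 and GAS5-AS1 led the higher genes, with interaction log2 values of 4.05, 3.89 and 3.11 for lapatinib and 3.62, 3.71 and 3.34 for nilotinib. TNS2-AS1, antisense to the focal adhesion gene TNS2, reached 2.99 for lapatinib. ROPN1L-AS1, GAS5-AS1 and TNS2-AS1 are among the 11 genes that reached the limit through treated libraries. LIPT2-AS1 was the lowest for nilotinib, at -2.79. Under the mitochondrial scaling these splits turned, to 13 higher and 39 lower for lapatinib and 13 and 33 for nilotinib. The median interaction values were then -0.16 and -0.12 for the antisense genes, against -0.52 and -0.41 for all tested genes.

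Set beside THZ531 (1 µM), lapatinib with THZ531 left 3 antisense genes lower and 0 higher, against backgrounds of 1.82% and 1.32%. Nilotinib with THZ531 left 1 lower and 0 higher, against 1.66% and 0.898%. NNT-AS1 was lower in both, by log2 FCs of -1.34 ± 0.12 (adjusted p = 1.85e-07) and -1.17 ± 0.12 (adjusted p = 8.22e-07). CKMT2-AS1 (-1.08 ± 0.24, adjusted p = 0.00159) and UBQLN1-AS1 (-1.08 ± 0.30, adjusted p = 0.00925) were lower with lapatinib. UBQLN1-AS1 lost this call without replicate 2 of THZ531 (1 µM) or of lapatinib with THZ531, where its log2 FC was -0.91 and -0.78. At an unadjusted p below 0.05, 70 antisense genes differed with lapatinib, 33 of them higher, where 6124 of the 16036 tested genes differed. With nilotinib 58 differed, 17 of them higher, where 5383 of all tested genes did. DESeq2 called 1 and 0 antisense genes higher. Between both combinations edgeR called 0 lower and 0 higher, against 0.0125% and 0.0499%, and DESeq2 called 0 beyond a log2 FC of 1. At an unadjusted p below 0.05 in edgeR there were 22 antisense genes, and 2006 of the 16036 tested genes. H1-10-AS1, named after its value was seen, passed at any size (log2 FC 0.67 ± 0.16, adjusted p = 0.0364), at 1.60, 1.94 and 1.90 CPM with lapatinib and 1.04, 1.11 and 1.26 CPM with nilotinib. It lost this call without any library of the nilotinib combination, without replicate 2 or 3 of the lapatinib combination, and without some libraries of other groups, with log2 FCs from 0.61 to 0.75.

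Other noncoding classes were counted in the same way with lapatinib and THZ531. Of 160 divergent transcripts (symbols ending in -DT), 20 (12.5%) were lower and 31 (19.4%) higher, and of 313 LINC genes 61 (19.5%) and 59 (18.8%). Of 301 tested antisense genes under the count limit, 36 (12.0%) were lower and 89 (29.6%) higher. The median log2 FC after THZ531 (0.1 µM) was -0.25 for the divergent transcripts, -0.26 for the LINC genes and 0.02 for protein-coding genes. Smaller classes were the 11 tested antisense genes without a number, with 2 lower and 1 higher, 12 intronic transcripts with 3 and 5, and 3 overlapping transcripts with 0 and 2. No difference between these classes and the 229 genes was tested.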

How the data were processed

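RNA was sequenced from 21 libraries of Hs578T cells, 3 in each of 7 groups. The authors deposited raw read counts per gene, made with HISAT2 2.1.0 and featureCounts on GRCh38 according to the submitters' processing notes, which also name DESeq2. The annotation release, the counting unit and the handling of overlapping genes are not given in the sources used here. Between 61.6% and 66.4% of the counts were even, and halved counts were tried as an alternative. Total counts per library ranged from 97612207 to 112229052.

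Counts were fitted in edgeR 4.0.16 (R 4.3.3) with TMM normalization, filterByExpr and the quasi-likelihood test, with one mean per group over all 21 libraries and Benjamini-Hochberg adjustment over the 16036 tested genes. A gene was called at an adjusted p below 0.05 and a log2 FC beyond 1, and the script was tested on simulated data. Alternatives were DESeq2 1.42.0, other size factors, scaling to mitochondrial mRNAs, other count filters, a replicate block and each library left out. Exon lengths came from GENCODE 44 and gene positions from RefSeq. The p-values set a difference between groups against the spread of replicate libraries, estimated over all 7 groups, and speak only for this cell line. Named were the 8 largest rises and falls per strong treatment without overlap with DMSO, the 5 smallest adjusted p per single treatment, the 5 highest levels per length, the 5 genes nearest the count limit on either side, up to 4 called genes per interaction or comparison with THZ531 (1 µM), and a list of long studied transcripts. One gene that the rule names is not reported here. The antisense genes and all lists were chosen with earlier results of these data known.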

Additional observations from a re-analysis of the deposited data

Results flagged for a closer look

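The change in a combination differed from the sum of the changes of its parts, by a test of the interaction itself, in many antisense genes. For lapatinib, 44 of the 229 genes were higher than that sum and 18 lower, where 6.70% and 18.3% of all tested genes were. For nilotinib, 28 were higher and 15 lower, against 5.51% and 17.8%. The higher genes include some that reached the count limit only through treated libraries: over the 218 genes with at least 50 counts in DMSO, 37 were higher and 18 lower for lapatinib and 21 and 15 for nilotinib. Under mitochondrial scaling the splits turned to 13 higher and 39 lower and to 13 and 33. The medians of all tested genes were then -0.52 and -0.41, and those of the antisense genes -0.16 and -0.12. Both interactions share the DMSO and THZ531 (0.1 µM) libraries. Under the main scaling similar classes split the same way. For lapatinib, 23.75% of divergent transcripts were higher and 6.25% lower, and 16.0% and 10.9% of LINC genes. The split is thus not particular to the 229 genes.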

How the results depend on the processing

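Scaling to mitochondrial mRNAs moved the counts most. With it, 72 antisense genes were lower and 10 higher with lapatinib and THZ531, 71 and 9 with nilotinib and THZ531, and 48 and 8 after THZ531 (1 µM). The interactions gave 39 lower and 13 higher for lapatinib and 33 and 13 for nilotinib, and against THZ531 (1 µM) 7 were lower with lapatinib and 2 with nilotinib. Under this scaling the log2 FC with lapatinib and THZ531 reversed for THUMPD3-AS1 (-0.16), PSMA3-AS1 (-0.30), UBQLN1 (-0.56), NNT (-0.25) and GAS5 (-0.26), with nilotinib and THZ531 for THUMPD3-AS1 (-0.10), and after THZ531 (1 µM) for FGD5-AS1 (-0.25). The scaling itself sets this shift, which also lowered the medians of all tested genes. Shares of all tested genes called under it are not given, so these counts cannot set antisense genes apart from other genes. Against DMSO, the antisense medians lay above those of all tested genes (-0.49 and -0.69, -0.41 and -0.63, -0.29 and -0.55). They also did in the interactions (-0.16 and -0.52, -0.12 and -0.41). Against THZ531 (1 µM) they lay below (-0.21 and -0.16, -0.17 and -0.11).

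DESeq2 and its size factors each gave 2 higher genes after THZ531 (0.1 µM) and 1 higher with lapatinib and THZ531 against THZ531 (1 µM). Over the 218 genes with at least 50 counts in DMSO, chosen after the data were seen, 12 (5.50%) were higher after THZ531 (1 µM). The share of all tested genes was 5.77%. The median log2 FC of the 218 genes lay 0.22 above that of all tested genes. With each library left out in turn, the genes lower after THZ531 (0.1 µM) numbered 2 to 5. Against THZ531 (1 µM) they numbered 2 to 6 lower and 0 to 2 higher with lapatinib, and 1 to 3 lower and 0 to 2 higher with nilotinib. The cause was not tested. Libraries with the same replicate number deviated together (r over 0.1) in 36 of 63 pairs of libraries (mean r 0.15, from -0.83 to 0.89). With different numbers they did so in 50 of 126 pairs (mean r -0.07, from -0.84 to 0.85). The main fit did not take the numbers as pairs, and these values do not settle whether replicates share an effect. With a replicate block, 32 genes were lower and 31 higher with lapatinib and THZ531, and the counts of the other comparisons stayed within 1.5 times. Genes with few counts, such as ROPN1L-AS1 in DMSO, have the least certain fold changes.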
